A study of Mus musculus with 6 samples.

Results

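The genes described here are 10 mouse targets of the transcription factor NRF2 and enzymes that make, recycle or use glutathione: Gclc, Gclm, Gsr, Txnrd1, Srxn1, Gstm1, Gsta4, Nqo1, Hmox1 and Me1. They were taken by symbol from the 19505 genes that the array names, and each had 1 probe set. The cells were 3 derivatives of melan-a, a mouse melanocyte line (strain C57BL/6J) that grows without limit in culture. All were kept untreated in RPMI medium with 10% fetal bovine serum, and RNA of each was put on 2 Affymetrix Clariom S arrays. The control, mVec (titled CD516B2), holds a control vector and has melanocyte as its label. Both other lines hold mutant Kit (K641E) and have transformed melanoma cells as their label: mKitK641E(T), titled C3#, called T here, and mKitK641E(PT), titled hi exp, called PT. What T, PT and these titles stand for, and which promoter drives Kit, the sources used here do not say. Each group is 1 line, and nothing says that its arrays came from separate cultures, so that errors and p-values measure only the spread between arrays, which may be technical.

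NRF2, encoded by Nfe2l2, is a transcription factor that is held in the cytoplasm and sent for degradation by Keap1 in unstressed cells. Oxidants and electrophiles release it, and it then binds antioxidant response elements as a dimer with a small Maf protein, a site for which Bach1 competes as a repressor. Its targets make glutathione, the main small thiol of the cell, keep glutathione and thioredoxin reduced with NADPH, and conjugate or reduce reactive compounds. In melanocytes, pigment synthesis is itself a source of quinones and peroxides, and NRF2 is known to protect these cells against oxidative stress.

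Values are the log2 values of the deposited table, and a difference of 1 is 2-fold. A background limit was set for each array, above which 5% of its negative-control probe sets lay (8.74 to 9.16), and between 29.0% and 32.6% of the 22206 gene probe sets lay above it. Where a group had no array above its limit, a fold is given as a lower bound ("at least"), measured against the limit in place of the dim values, and no fold is given where both groups were at background. Differences were tested with limma over all gene probe sets, an error is the standard error of that fit, and a call means a Benjamini-Hochberg adjusted p under 0.05. Melanocyte markers were mostly absent: 9 of 11 (Sox10, Tyr, Tyrp1, Dct, Pmel, Mlana, Slc45a2, Ednrb and Kit) were under the limit on all 6 arrays, and Gpnmb alone was above it on every array. The log2 of the summed level of the 11 was 15.27 to 15.30 in mVec, 13.86 to 13.91 in T and 12.90 to 13.02 in PT. Such a sum is set mostly by its brightest genes. In each Kit line 1 of the 11 was called higher and 1 lower (9.09% each). The shares over all gene probe sets were 16.9% and 15.5% in T and 17.9% and 18% in PT. The median differences of the list were -0.04 in T and -0.03 in PT. The gene called higher was Mitf, by 1.03 ± 0.20 in T and by 0.84 ± 0.20 in PT. It was above the limit in T only. Kit itself, between 3.84 and 5.18 on the 6 arrays, gave no check of the labels. Markers of other cell types moved with the comparison: 6 of 9 fibroblast markers were called lower than in mVec in both Kit lines and 1 higher. These are 66.7% and 11.1% of the list. Of all gene probe sets, 15.5% were called lower and 16.9% higher in T, and 18% and 17.9% in PT. In each line 1 of the fibroblast calls had both groups at background. The log2 of the summed level of the 9 was 17.94 to 18.01 in mVec, 16.03 to 16.08 in T and 15.99 to 16.02 in PT. Thy1 and Lum of this list were under the limit on every array, the endothelial marker Cdh5 was above it in mVec only, and the leukocyte (4) and keratinocyte (4) markers were under it throughout. Among 10 genes of RNA quality and culture stress, 3 were called higher and 5 lower than in mVec in each Kit line. These are 30% and 50% of the list, beside the same shares of all gene probe sets. In each line 2 of these calls had both groups at background. The part of these markers in the differences below was not tested.

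The core of the antioxidant response element was searched in promoter windows from RefSeq (GRCm38.p6, 250 bases before to 50 after a transcript start), in which 6 of the 10 genes matched by symbol (not Gclc, Gsr, Gsta4 and Hmox1). The letters TGACNNNGC, read on both strands, occurred in 4 of the 6, against 14.0% of the 27025 genes in that table and 12.4% of its 32851 windows. In the genes of the 8 wider lists described below it occurred in 17 of 89 (19.1%). Parts of the windows are shown 5′ to 3′ on the strand of the gene, to show where these letters lie or are absent there. Except for Srxn1, they are the 250 bases before the start, or 253 bases for Me1, to the end of its match. The rest of each window was searched but is not shown. For Srxn1 the 29 bases that hold the match are shown, which lie downstream of the start. Capitals mark TGACNNNGC or its reverse complement. Nqo1 is chr8:107403206-107403455 (minus strand), Gstm1 chr3:108017974-108018223 (minus strand, the first of its 2 starts in the table), Txnrd1 chr10:82858956-82859205 (plus strand, 1 of 3 starts), Gclm chr3:122245307-122245556 (plus strand), Me1 chr9:86695912-86696164 (minus strand, 1 of 2 starts) and Srxn1 chr2:152105542-152105570 (plus strand).
Nqo1: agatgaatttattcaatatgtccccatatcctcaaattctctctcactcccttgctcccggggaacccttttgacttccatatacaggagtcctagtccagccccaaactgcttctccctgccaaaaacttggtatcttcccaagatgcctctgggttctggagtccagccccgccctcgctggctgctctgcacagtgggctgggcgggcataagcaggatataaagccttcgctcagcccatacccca
Gstm1: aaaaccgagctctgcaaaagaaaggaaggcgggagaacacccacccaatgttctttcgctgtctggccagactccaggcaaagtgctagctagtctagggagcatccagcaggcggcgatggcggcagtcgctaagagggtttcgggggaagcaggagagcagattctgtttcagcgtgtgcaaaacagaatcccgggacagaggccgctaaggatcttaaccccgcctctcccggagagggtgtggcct
Txnrd1: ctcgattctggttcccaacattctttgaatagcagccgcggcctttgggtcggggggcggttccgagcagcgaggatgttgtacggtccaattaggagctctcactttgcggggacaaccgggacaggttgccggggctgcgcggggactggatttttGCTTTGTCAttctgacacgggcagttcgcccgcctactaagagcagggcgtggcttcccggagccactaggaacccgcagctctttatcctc
Gclm: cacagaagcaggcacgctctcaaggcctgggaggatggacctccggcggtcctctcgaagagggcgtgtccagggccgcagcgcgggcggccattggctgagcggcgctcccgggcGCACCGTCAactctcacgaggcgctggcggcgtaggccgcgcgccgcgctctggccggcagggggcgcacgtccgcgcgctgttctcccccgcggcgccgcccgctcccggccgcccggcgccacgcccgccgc
Me1: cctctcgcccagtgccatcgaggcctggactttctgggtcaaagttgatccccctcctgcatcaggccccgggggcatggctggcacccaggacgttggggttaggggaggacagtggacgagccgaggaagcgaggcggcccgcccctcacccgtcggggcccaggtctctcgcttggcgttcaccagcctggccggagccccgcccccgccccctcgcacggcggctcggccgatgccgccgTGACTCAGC
Srxn1: gcagtgggcaGCTAGGTCAgagtgagaca
The match began 134 bases upstream of the start in Gclm, 92 upstream in Txnrd1, 6 upstream in Me1 and 28 downstream in Srxn1. The AP-1 type sequence TGANTCA, which reads alike on both strands, occurred in 2 of the 6 genes, against 8.97% of all genes in the table and 8.99% of those in the wider lists. It overlaps the capital letters of Me1 and stood at 102 and 45 bases upstream in Srxn1, outside the stretch shown. A match is a description of the letters and not a shown binding site, and Nqo1 and Gstm1 had no TGACNNNGC in these windows.

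The comparisons of T and PT with mVec ask how mutant Kit lines differ from the vector line in these genes, and they share the mVec arrays. The 10 genes did not move as a block. In both Kit lines the glutathione-making subunit Gclc, the thioredoxin reductase Txnrd1 and the heme oxygenase Hmox1 rose, and the transferase Gstm1 and the quinone reductase Nqo1 fell. In T, 6 of the 10 were called, beside 32.4% of all gene probe sets: 4 higher (16.9% of all) and 2 lower (15.5% of all). The arrays of T and mVec did not overlap for 10 of 10 genes, beside 61.6% of all. In PT, 6 of the 10 were called, beside 35.9% of all: 3 higher (17.9% of all) and 3 lower (18% of all). The arrays of PT and mVec did not overlap for 7 of 10, beside 64.8% of all. The median difference of the 10 genes was 0.38 in T and 0.01 in PT, beside 0.01 and 0.08 over all gene probe sets. When the arrays were centred on their medians every difference rose, by 0.18 in T and 0.19 in PT, which made the members' calls 5 higher and 2 lower in T and 4 higher and 3 lower in PT. Over all gene probe sets the share of calls that were higher then went from 52.3% to 62.3% in T and from 49.9% to 60.3% in PT. With quantile normalization the members' calls in T were 3 higher and 3 lower, beside 3851 and 3371 of all 22206 gene probe sets. In these bulk samples, fewer cells that express a gene and less of its RNA per cell cannot be told apart.

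**Figure D1:**
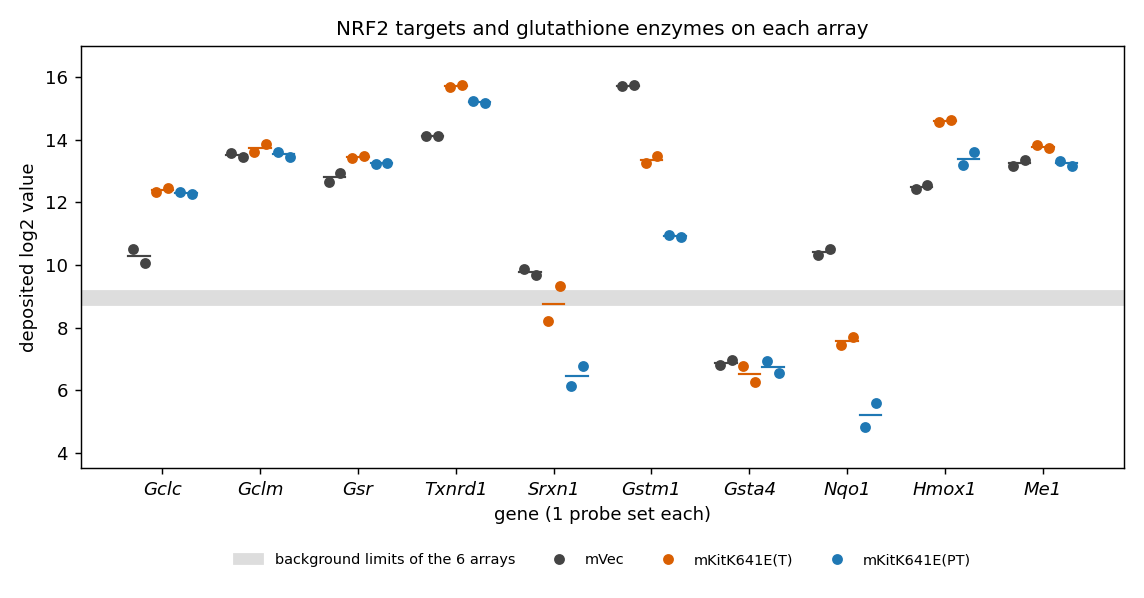
Deposited log2 values (vertical axis) of the 10 genes (horizontal axis) on each of the 6 arrays, with points for arrays, short lines for group means of 2 arrays and a grey band for the background limits of the arrays (8.74 to 9.16). Gclc, Txnrd1 and Hmox1 are higher in both Kit lines than in mVec, Gstm1 and Nqo1 step down from mVec to T to PT, and Gsta4 lies under the band in all groups. Values of different genes come from different probe sets and cannot be set against each other.

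Gclc encodes the catalytic subunit of glutamate-cysteine ligase, which carries out the rate-limiting step of glutathione synthesis. Its log2 values were 10.50 and 10.06 in mVec, 12.34 and 12.46 in T, and 12.34 and 12.25 in PT. All 4 Kit arrays lay above both mVec arrays, and T and PT overlapped. Relative to mVec, Gclc rose 4.34-fold in T (2.12 ± 0.22 on the log2 scale, limma adjusted p = 5.04e-05) and 4.04-fold in PT (2.01 ± 0.22, adjusted p = 5.28e-05). T and PT differed by 0.10 (95% interval -0.40 to 0.60), which did not pass the test. Gclm encodes the modifier subunit, which makes the ligase more efficient. It measured 13.57 and 13.45 in mVec, 13.61 and 13.87 in T, and 13.63 and 13.45 in PT. These values lie close together, with T just above both mVec arrays and PT overlapping them. The difference was 0.23 (95% interval -0.24 to 0.70) in T and 0.03 (-0.44 to 0.50) in PT, and no comparison of Gclm was called. The sign of the PT value turned with quantile normalization (-0.070). The 2 subunits of this enzyme thus differed in their calls, although the difference between them was not tested.

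The rest of glutathione synthesis and turnover was read from a list of 13 genes, of which 12 were measured. In T, 4 of these were called higher and 1 lower, and in PT 6 and 2, some of them at background in both groups (2 in T and 4 in PT). These are 33.3% and 8.33% of the list in T, beside 16.9% and 15.5% of all gene probe sets, and 50.0% and 16.7% in PT, beside 17.9% and 18% of all. The median difference of the list was 0.28 in T and 0.39 in PT, beside 0.01 and 0.08 over all gene probe sets. Gss, the synthetase that adds glycine in the second step, was at background in mVec (7.50 and 7.53) and rose to 10.93 and 10.63 in T and 10.84 and 11.13 in PT. The rise was at least 3.43-fold in T and 3.95-fold in PT. Cth, which makes cysteine by the transsulfuration route, rose by 4.68 ± 0.21 in T (25.6-fold) and by 4.35 ± 0.21 in PT (20.4-fold). Chac1, which breaks glutathione down and is a known target of the integrated stress response, rose 4.13-fold in T and 2.94-fold in PT. Its homologue Chac2 rose in PT (1.06 ± 0.21, adjusted p = 0.0026) and had a value of 0.54 ± 0.21 in T that did not pass (adjusted p = 0.0843). Genes of synthesis and of breakdown therefore both appear among the rises.

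Gsr, glutathione reductase, returns oxidised glutathione to its reduced form with NADPH. It measured 12.67 and 12.93 in mVec, 13.43 and 13.49 in T, and 13.24 and 13.27 in PT. The Kit arrays were all above the mVec arrays by a small margin. The rise in T was 1.58-fold (0.66 ± 0.20, adjusted p = 0.0317), and the PT value of 0.46 ± 0.20 did not pass (adjusted p = 0.12). The call in T was lost without T replicate 1 (adjusted p = 0.0676), T replicate 2 (0.0996), mVec replicate 1 (0.219) or mVec replicate 2 (0.0644), and with quantile normalization (0.0703), over a range from 0.00492 to 0.219 in its alternatives. In PT, Gsr was called when arrays were centred (limma adjusted p = 0.0323), with only probe sets above the background limit (0.038) and with an intensity trend (0.0396). It was not called in the other alternatives.

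Txnrd1, cytosolic thioredoxin reductase, is a selenoprotein that keeps thioredoxin reduced. It read 14.12 and 14.13 in mVec, 15.68 and 15.76 in T, and 15.24 and 15.19 in PT. The 3 groups did not overlap, in the order T, PT, mVec, although the step from PT to T (0.51, 95% interval 0.07 to 0.94) did not pass (limma adjusted p = 0.16). Txnrd1 rose 3.02-fold in T (1.60 ± 0.20, adjusted p = 0.000142) and 2.13-fold in PT (1.09 ± 0.20, adjusted p = 0.0014). With an intensity trend in the fit, T and PT were called different for it (adjusted p = 0.0185). They were also called different with only probe sets above the background limit (0.0444), and not in the other alternatives. Srxn1, sulfiredoxin, repairs overoxidised peroxiredoxins. Its log2 values were 9.87 and 9.69 in mVec, 8.20 and 9.33 in T, and 6.15 and 6.77 in PT. The groups did not overlap, but the T arrays lay further apart than those of the other lines, with 1 of them above the background limit, and PT was at background. Srxn1 fell in PT, by at least 1.71-fold (log2 difference -3.32 ± 0.36, adjusted p = 4.63e-05). In T the difference of -1.02 ± 0.36 did not pass (adjusted p = 0.0564). It was called without T replicate 2, the higher of the T arrays (-1.58, adjusted p = 0.00568), with T then read from 1 array, with the replicate block (0.0365) and in 4 other alternatives, over a range from 0.00568 to 0.322. Txnrd1 and Srxn1, which serve the same thioredoxin system, thus moved in opposite directions in PT.

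Of the 8 other measured thioredoxin and glutaredoxin genes, 3 were called higher and 2 lower in T and 4 and 2 in PT, with both groups at background for 1 of the calls in T and 2 in PT. The shares were 37.5% and 25.0% in T, beside 16.9% and 15.5% of all gene probe sets, and 50.0% and 25.0% in PT, beside 17.9% and 18%, and the medians were 0.34 and 0.50. The rises included mitochondrial members: Txn2, mitochondrial thioredoxin, was 4.80-fold higher in T and 4.18-fold in PT, and Glrx5, a mitochondrial glutaredoxin of iron-sulfur cluster assembly, 3.94-fold and 3.76-fold. Cytosolic Glrx, which removes glutathione from protein thiols, fell 6.37-fold in T and 10.4-fold in PT. Txnip, which binds and inhibits thioredoxin, fell by 1.10 ± 0.22 in T and by 1.73 ± 0.22 in PT. Among the 14 measured peroxidases, peroxiredoxins, catalase and superoxide dismutases, 1 was called higher and 4 lower in T, and 1 and 6 in PT. The share called higher, 7.14% in each line, was under that of all gene probe sets (16.9% and 17.9%). The share called lower was 28.6% in T and 42.9% in PT, beside 15.5% and 18% of all, and the medians were -0.33 and -0.13. The 1 that rose was Sod2, the superoxide dismutase of mitochondria (3.95-fold in T and 3.92-fold in PT). Sod3, the secreted dismutase, fell from 13.44 and 13.21 in mVec to background, a change of at least 22.5-fold in T and 19.9-fold in PT. Catalase (Cat) fell 2.97-fold in T and 5.35-fold in PT, and Prdx4, the peroxiredoxin of the endoplasmic reticulum, 2.42-fold and 4.71-fold. Sod1 fell 2.92-fold in PT (-1.55 ± 0.22) and had a value of -0.32 ± 0.22 in T that did not pass. It was 2.34-fold higher in T than in PT. In fits without 1 array, this difference ran from 1.06 to 1.39.

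**Figure D2:**
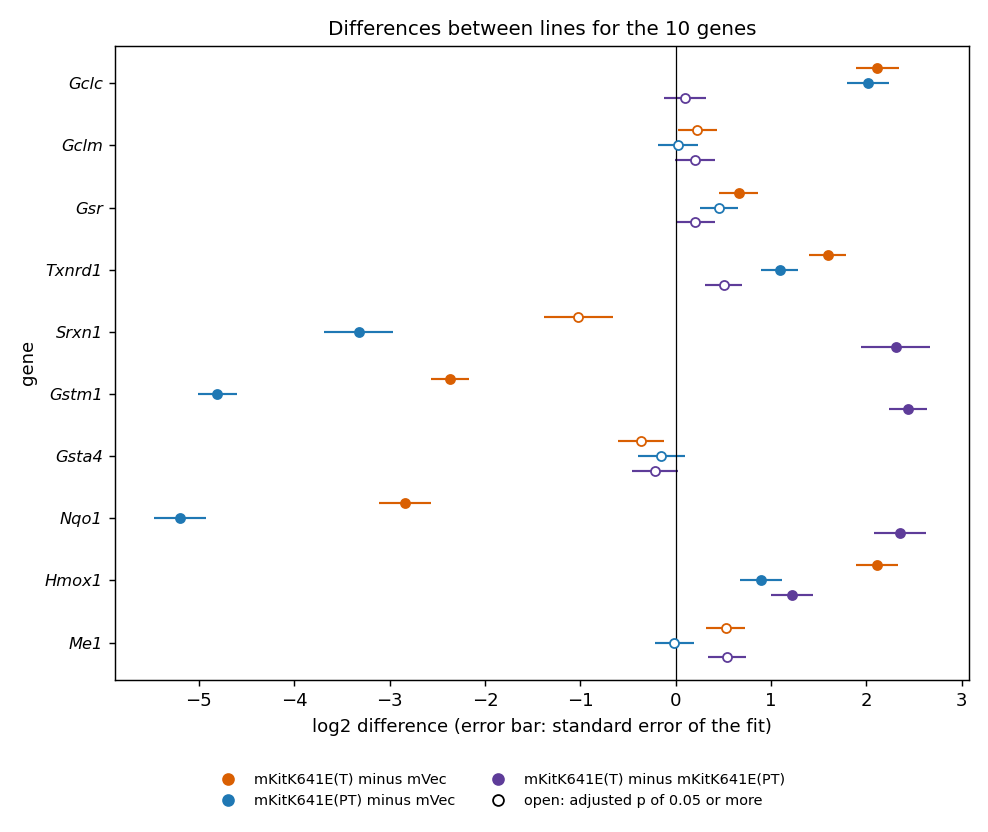
Log2 differences (horizontal axis) of the 10 genes (vertical axis) for each Kit line against mVec and for T against PT, with the standard error of the limma fit as bars; filled points have an adjusted p under 0.05. Gstm1 and Nqo1 lie furthest to the left in both comparisons with mVec, Gclc, Txnrd1 and Hmox1 lie to the right, and the 4 filled points of T minus PT are positive.

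Gstm1, a mu class transferase, joins glutathione to electrophiles. Its log2 values were 15.71 and 15.76 in mVec, 13.26 and 13.47 in T, and 10.96 and 10.90 in PT. The 6 arrays fell into 3 separate steps, all above background, with mVec highest and PT lowest. Gstm1 fell 5.15-fold in T (-2.36 ± 0.20, adjusted p = 1.3e-05) and 27.9-fold in PT (-4.80 ± 0.20, adjusted p = 1.17e-07), and T was 5.43-fold higher than PT (adjusted p = 0.000399). These calls held in all alternatives tried. Gsta4 is the alpha class transferase with a known preference for 4-hydroxynonenal, a product of lipid peroxidation. It was under the background limit on all 6 arrays (6.80 and 6.97 in mVec, 6.76 and 6.28 in T, 6.92 and 6.55 in PT), the groups T and PT overlapped, and no difference was called. The value of Gsta4 in PT against mVec, -0.15 ± 0.24, turned to 0.039 with centred arrays and to 0.26 with quantile normalization.

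The other mu class genes were singled out after their values were seen. In the RefSeq annotation of the mouse genome, Gstm1 to Gstm7 lie next to one another on chromosome 3 with 3 pseudogenes among them and no other gene. All 7 had higher means in mVec than in T and in T than in PT. The share of all gene probe sets with this order was not counted. All 7 were called lower in both Kit lines, with differences from -2.49 to -0.91 in T and from -4.80 to -1.54 in PT. Of all gene probe sets, 15.5% were called lower in T and 18% in PT. Between the Kit lines, 5 of the 7 were called higher in T than in PT, beside 5.67% of all. Of these calls, those of Gstm4, Gstm5 and Gstm7 had both lines at background. Gstm2 measured 12.33 and 12.37 in mVec, 11.24 and 11.12 in T, and 9.68 and 9.41 in PT, a fall of 2.25-fold in T and 6.97-fold in PT. Gstm7 was above background in mVec only (10.03 and 9.61) and fell by at least 1.98-fold in T and 1.75-fold in PT. Gstm3, Gstm4 and Gstm6 were under the limit on every array, and Gstm5 was above it on 1 mVec array. The call of Gstm5 in T was lost without T replicate 1 (adjusted p = 0.0581) or mVec replicate 1 (0.125). That of Gstm6 in T was lost without T replicate 2 (0.102) or mVec replicate 2 (0.165), with centred arrays (0.0515) and with quantile normalization (0.077). Between T and PT, the calls of Gstm4 and Gstm5 were lost without T replicate 2 (0.0803 and 0.103), PT replicate 1 (0.0675 and 0.117) or PT replicate 2 (0.0902 and 0.0715). These genes are close paralogs, and how far their probe sets share signal was not tested.

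**Figure D3:**
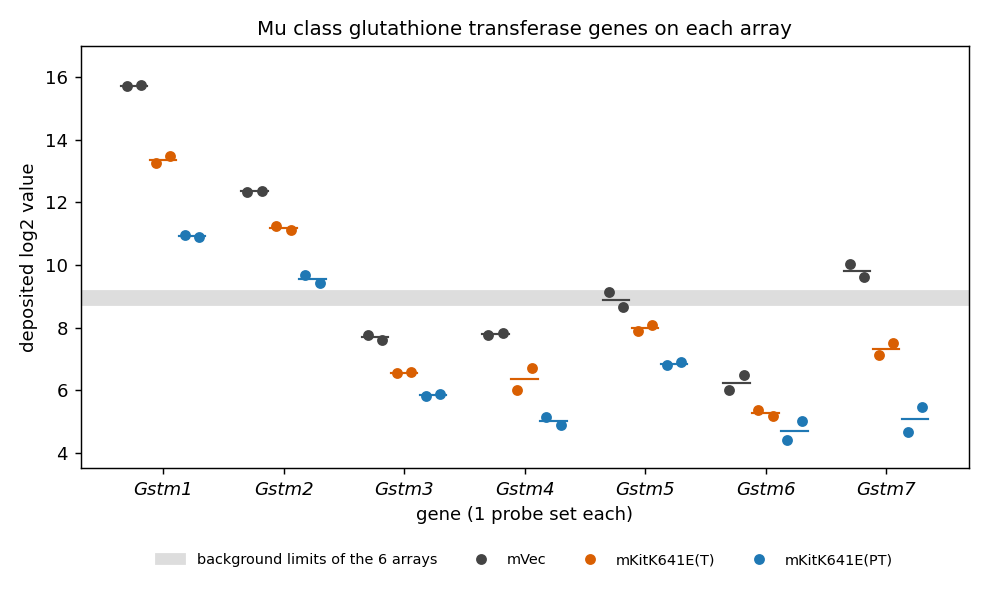
Deposited log2 values (vertical axis) of the 7 mu class transferase genes (horizontal axis) on each array, with short lines for group means of 2 arrays and a grey band for the background limits (8.74 to 9.16). In each gene the mVec arrays lie highest and the PT arrays lowest; Gstm3, Gstm4 and Gstm6 lie under the band throughout.

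With Gstm2 to Gstm7, 21 other transferases were measured, of which 2 were called higher and 10 lower in T and 2 and 11 in PT, with both groups at background for 6 of the calls in T and 5 in PT. The share called lower was 47.6% in T and 52.4% in PT, beside 15.5% and 18% of all gene probe sets, and the share called higher was 9.52% in each, beside 16.9% and 17.9%. The median difference was -0.63 in T and -0.93 in PT. The largest fall was that of Mgst1, a membrane-bound microsomal transferase, from 14.83 and 14.75 in mVec to 5.74 and 6.01 in T and 5.81 and 5.38 in PT. It was thus bright in mVec and at background in both Kit lines, a fall of at least 62.2-fold in T and 54.9-fold in PT. Gsto1, an omega class enzyme that reduces rather than conjugates, went the other way, 6.57-fold higher in T and 4.77-fold in PT. Gstcd, which carries a transferase-like domain, was also called higher, at least 1.25-fold in T and at least 1.79-fold in PT.

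Nqo1, a quinone reductase and one of the most used reporters of NRF2 activity, had the widest range of group means of the 10 genes, a range that rests on values under the background limit in T and PT. It read 10.31 and 10.51 in mVec, 7.43 and 7.70 in T, and 4.83 and 5.60 in PT. The groups did not overlap, and mVec alone was above background. Nqo1 fell by at least 2.98-fold in T (-2.84 ± 0.27, adjusted p = 2.92e-05) and 2.63-fold in PT (-5.19 ± 0.27, adjusted p = 4.52e-07). The bound for PT is no larger than that for T because both are set by the limit. T was called higher than PT (2.35 ± 0.27, adjusted p = 0.00178), with both at background. For this gene, chosen by that range, the genes whose pattern over the 6 arrays lay nearest, after each gene was centred on its mean, were Selenom, Ccng2 and Arhgef25, with root mean square differences of 0.10, 0.19 and 0.20 on the log2 scale.

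Hmox1, heme oxygenase 1, opens the ring of heme and releases iron, carbon monoxide and biliverdin. It is induced through NRF2 and held down by Bach1. Its log2 values were 12.42 and 12.57 in mVec, 14.58 and 14.64 in T, and 13.18 and 13.60 in PT. The groups did not overlap, with T highest and mVec lowest. Hmox1 rose 4.33-fold in T (2.11 ± 0.22, adjusted p = 4.85e-05) and 1.86-fold in PT (0.90 ± 0.22, adjusted p = 0.00918), and T was 2.33-fold higher than PT (adjusted p = 0.0105). The PT call was lost without PT replicate 2 (0.69, adjusted p = 0.0741) or mVec replicate 1 (0.82, adjusted p = 0.0708), over a range from 0.000663 to 0.0741. The call between T and PT was lost without T replicate 2 (adjusted p = 0.0644) or PT replicate 1 (0.0861), over a range from 0.000557 to 0.0861. Of 5 other genes of heme breakdown and synthesis, 2 were called lower in T and all 5 in PT, with 0 called higher, beside 15.5% and 18% of all gene probe sets called lower. Of these calls, 1 in T and 2 in PT had both groups at background, and the medians were -0.47 and -1.13. The call of Alas1, the first enzyme of heme synthesis, was lost without PT replicate 1 (adjusted p = 0.0948) or mVec replicate 1 (0.0704). Fech, which inserts iron in the last step of heme synthesis, fell 2.45-fold in T and at least 5.17-fold in PT. Hmox2, the constitutive heme oxygenase, fell by 1.13 ± 0.23 in PT, while its value in T (-0.47 ± 0.23) did not pass. Hmox1 and Hmox2 therefore moved in opposite directions in PT.

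Me1, cytosolic malic enzyme, makes NADPH from malate. It measured 13.18 and 13.34 in mVec, 13.82 and 13.74 in T, and 13.32 and 13.17 in PT. T lay above the other groups, which overlapped. The difference was 0.52 ± 0.20 in T (adjusted p = 0.0788) and -0.01 ± 0.20 in PT (adjusted p = 0.976), and neither passed. The T value was called when arrays were centred (0.71, adjusted p = 0.021) and in 3 other alternatives, over a range from 0.017 to 0.326, and the sign in PT turned when arrays were centred (0.17). T was higher than PT by 0.54 ± 0.20, which did not pass (adjusted p = 0.15) but was called with the filter on background (0.0421) and with an intensity trend (0.0408), over a range from 0.0408 to 0.35. Of 12 other genes of NADPH supply, 9 were measured. In T, 4 were called higher and 3 lower, and in PT 3 and 5, with both groups at background for 1 call in each line. The shares were 44.4% and 33.3% in T, beside 16.9% and 15.5% of all gene probe sets, and 33.3% and 55.6% in PT, beside 17.9% and 18%, and the medians were 0.37 and -0.82. Idh1, cytosolic isocitrate dehydrogenase, fell 2.74-fold in T and at least 7.82-fold in PT, and its mitochondrial counterpart Idh2 fell 3.07-fold and 3.41-fold. Pgd, of the pentose phosphate pathway, fell 4.11-fold in PT (-2.04 ± 0.28) and had a value of -0.49 ± 0.28 in T that did not pass. Me2, the mitochondrial malic enzyme, rose 2.28-fold in T and 2.23-fold in PT. H6pd fell to background, by at least 1.97-fold in T (-1.34 ± 0.36) and 1.74-fold in PT (-3.17 ± 0.36). In fits without 1 array, its difference in T ran from -1.82 to -0.85. Between T and PT it differed by 1.83 ± 0.36, with both at background.

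NRF2 and its partners were read next, as the genes that act on the 10 targets. Nfe2l2 measured 11.94 and 12.37 in mVec, 10.65 and 11.21 in T, and 10.41 and 10.78 in PT. Both Kit lines lay under mVec, and T and PT overlapped. Nfe2l2 fell 2.34-fold in T (-1.22 ± 0.27, adjusted p = 0.0057) and 2.95-fold in PT (-1.56 ± 0.27, adjusted p = 0.00112). Keap1, its inhibitor, read 10.55 and 10.82 in mVec and between 8.63 and 9.01 on the 4 arrays of T and PT, which overlapped. It fell 3.58-fold in T (-1.84 ± 0.23, adjusted p = 0.000176) and 3.65-fold in PT (-1.87 ± 0.23, adjusted p = 0.000125), with 1 of the arrays of each Kit line above background. Bach1, the repressor, fell 1.69-fold in T (-0.75 ± 0.21, adjusted p = 0.0213) and 1.83-fold in PT (-0.88 ± 0.21, adjusted p = 0.00871). The activator and both of its negative regulators were thus lower together at the RNA level in the Kit lines. The Nfe2l2 call in T was lost without mVec replicate 2 (adjusted p = 0.0569, range over the alternatives 0.00111 to 0.0569). The Bach1 call in T was lost without T replicate 1 (0.0607), T replicate 2 (0.0678) or mVec replicate 2 (0.185) and with centred arrays (0.066), over a range from 0.0051 to 0.185. In PT, the Bach1 call was lost without mVec replicate 2 (0.0948, range 0.00194 to 0.0948).

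The small Maf proteins, which pair with NRF2 or Bach1, went up. Maff was at background in mVec (7.12 and 7.37) and rose to 10.23 and 11.18 in T and 9.36 and 10.06 in PT, at least 3.25-fold and at least 1.63-fold. Mafk rose at least 2.38-fold in T and at least 1.86-fold in PT. Of the 10 genes of NRF2 control, 3 were called higher and 3 lower in T, beside 16.9% and 15.5% of all gene probe sets, and 4 and 3 in PT, beside 17.9% and 18%. In PT, 1 of these calls had both groups at background, and the medians were 0.20 in T and 0.30 in PT. Among 14 other genes known to respond to NRF2, 2 were called higher and 4 lower in T and 3 and 6 in PT, with both groups at background for 1 of the calls in T and 2 in PT. The shares were 14.3% and 28.6% in T, beside 16.9% and 15.5% of all gene probe sets, and 21.4% and 42.9% in PT, beside 17.9% and 18%, and the medians were -0.35 and -0.41. Slc7a11, the cystine importer that feeds glutathione synthesis, read 11.44 and 11.22 in mVec, 14.84 and 14.44 in T, and 13.18 and 13.39 in PT. Its groups did not overlap, with a rise of 9.92-fold in T (3.31 ± 0.23) and 3.86-fold in PT (1.95 ± 0.23). Abcc4, an exporter of conjugates and cyclic nucleotides, rose 22.2-fold in T and 15.1-fold in PT. Among the genes of this list that fell, Aox1, aldehyde oxidase, fell by at least 5.43-fold in T and 4.79-fold in PT, and Ephx1, microsomal epoxide hydrolase, fell 6.63-fold and 9.39-fold. Slc48a1, a heme transporter, fell 2.65-fold in T and 9.63-fold in PT. Over the 8 lists together, 93 genes were measured, and 19 were called higher and 29 lower in T and 23 and 40 in PT, of which 12 calls in T and 17 in PT had both groups at background. The shares were 20.4% and 31.2% in T, beside 16.9% and 15.5% of all gene probe sets, and 24.7% and 43.0% in PT, beside 17.9% and 18%. Their median differences were -0.22 in T and -0.32 in PT, beside 0.01 and 0.08 over all.

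**Figure D4:**
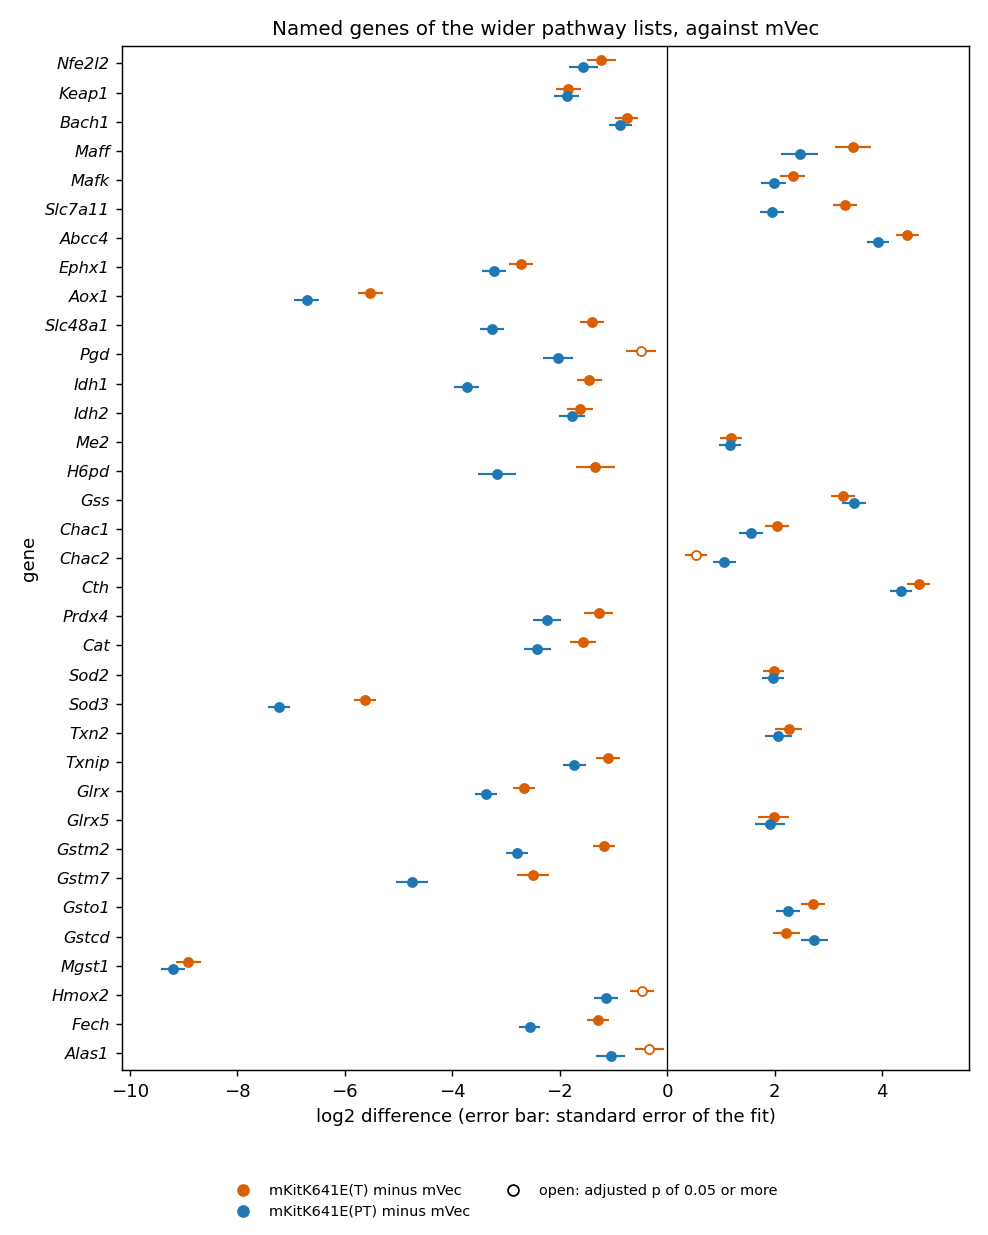
Log2 differences from mVec (horizontal axis) of the named genes of the 8 wider lists (vertical axis, in list order from NRF2 control at the top to heme at the bottom), for T and PT, with the standard error of the limma fit as bars and open points for adjusted p of 0.05 or more. Nfe2l2, Keap1 and Bach1 lie left of 0 in both lines, Maff, Mafk, Slc7a11, Abcc4, Gss and Cth lie right of it, and Mgst1 and Sod3 lie furthest left.

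The comparison of T with PT asks how the 2 Kit lines differ from each other. Of the 10 genes, 4 were called, beside 8.36% of all gene probe sets: Nqo1, Hmox1, Srxn1 and Gstm1 were higher in T (5.67% of all) and 0 lower (2.7% of all). The arrays of T and PT did not overlap for 7 of the 10, beside 50.1% of all. Counting the genes at an unadjusted limma p under 0.05, 6 were higher and 0 lower. The same count was 5 and 3 for T against mVec and 3 and 3 for PT against mVec. The share of all gene probe sets at this threshold was not counted, so these counts do not show whether the 10 genes differ from the rest. The median difference of the 10 genes between T and PT was 0.52, beside -0.04 over all gene probe sets. Srxn1 was higher in T by 2.31 ± 0.36 (adjusted p = 0.00569), with PT at background, and this call was lost without PT replicate 1 (adjusted p = 0.0621, range over the alternatives 0.00093 to 0.0621). Without PT replicate 1, 2 of the 10 genes were called. In the wider lists, 17 of 93 genes were called higher in T and 0 lower, 9 of them with both lines at background. They numbered 8 without T replicate 2, 7 without PT replicate 1 and 15 without either mVec array. They included Slc48a1 (3.64-fold), Idh1 (at least 2.86-fold) and Slc7a11 (2.57-fold), whose call was lost without PT replicate 1 (adjusted p = 0.0666, range 0.00041 to 0.0666). Nfe2l2, Keap1 and Bach1 were not called between the lines, with differences of 0.33 (95% interval -0.27 to 0.94), 0.03 (-0.50 to 0.55) and 0.12 (-0.36 to 0.60), and with quantile normalization the last 2 turned sign.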

How the data were processed

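RNA of 3 lines was measured on 6 Affymetrix Clariom S arrays, 2 per line, grouped by the source names of the labels. The authors' deposited table holds log2 values for 28846 probe sets and controls, which were taken as normalized. The unit was read from the values, and the sources used here do not state the software, background correction, normalization or genome build. Normalization before deposition sets the scale on which each difference is read. The 22206 gene probe sets were tested without a filter, and 5222 negative controls gave the background limits. The number of arrays limits the precision. Symbols came from the platform's probe table, which names 1 gene for 19572 probe sets and none for 2634. One linear model over all 6 arrays was fitted with limma 3.58.1 in R 4.3.3, with 3 residual and 6.36 prior degrees of freedom. Two-sided p-values had a Benjamini-Hochberg adjustment over all gene probe sets within each of the 3 comparisons. The fit was tested on simulated data. Named beyond the 10 genes are Nfe2l2, Keap1 and Bach1, the other Gstm genes and cell markers. Of each wider list, up to 4 called genes with the largest difference in a comparison are also named. These lay above background on both arrays of at least 1 group. The nearest patterns are given for the gene with the widest range of group means. G6pdx, Tkt, Nnt, Ggt1, Prdx5, Prdx6, Glrx3 and Gsta1 of the lists are not analysed here. The genes and lists were chosen with earlier results of these data known.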

Additional observations from a re-analysis of the deposited data

Results flagged for a closer look

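Of the 10 genes, 4 had differences from mVec that were unequal in the 2 Kit lines by the test of T minus PT. Of all gene probe sets, 8.36% were called in this test, and 5.67% were called higher in T. Each difference from mVec shares the mVec arrays, so that the value is the difference between the lines themselves. Gstm1 was higher in T than in PT by 2.44 on the log2 scale (limma adjusted p = 0.000399, higher in 2 of 2 T arrays). Nqo1 was higher by 2.35, with both lines under the background limit. Srxn1 was higher by 2.31, with PT at background and 1 of the T arrays above it. Hmox1 was higher by 1.22, and it is the one of these 4 genes that was above mVec in both lines. The calls of Srxn1 and Hmox1 did not hold in every fit without 1 array, as given above.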

How the results depend on the processing

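Each value of the 10 genes was recomputed with the replicate number as a block, with arrays centred or quantile normalized, with 2 filters on low values, with an intensity trend, with the 2 compared groups alone and without each array in turn. Of 387 such values, 350 kept their direction and their side of the threshold, 10 lost a call, 17 gained one and 10, none of them called, changed sign. For the named genes of the wider lists, 1090 of 1129 kept both, 34 lost a call, 1 gained one and 4 changed sign. The signs that changed are those of PT minus mVec for Gsta4 (0.039 with centred arrays, 0.26 with quantile normalization), Me1 (0.17 with centred arrays) and Gclm (-0.070 with quantile normalization), and of T minus PT for Keap1 (-0.18) and Bach1 (-0.028) with quantile normalization. Without single arrays, PT minus mVec ran from -0.33 to 0.035 for Gsta4, from -0.095 to 0.069 for Me1 and from -0.058 to 0.12 for Gclm, and T minus PT from -0.46 to 0.025 for Gsta4 and from -0.16 to 0.22 for Keap1. A fit without 1 array keeps 2 residual degrees of freedom in place of 3 and assumes that the lone array of a line varies like the other lines. Calls between T and PT then numbered 549 to 1714 gene probe sets against 1857, 2 to 4 of the 10 genes against 4, and 7 to 17 genes of the wider lists against 17. There were 549 gene probe sets without PT replicate 1, 801 without PT replicate 2 and 659 without T replicate 2. Without either mVec array, which this comparison does not average, there were 1357, so that some of the loss comes with fewer degrees of freedom, and the cause of the rest was not tested. Array deviations from the group mean, compared between lines at the same replicate number of the titles, correlated at 0.043, 0.040 and 0.082 across genes. These low values do not settle whether arrays of the same number were handled together. With the replicate block, 7 of the 10 genes were called between T and mVec, 6 between PT and mVec and 4 between T and PT. Of all 22206 gene probe sets, 7330, 8054 and 1819 were called in these comparisons with the block. With the limit at the 75th percentile of the negative controls, 10, 10 and 8 of the 10 genes were above it on both arrays of mVec, T and PT, against 9, 7 and 7 at the 95th and 4, 6 and 5 at the 99th. The lowest of several probe sets was not tried because each listed gene had 1.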
